A study of Mus musculus with 7 samples.

Results

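Among cultured mutant oligodendrocyte progenitor cells (OPCs), 801 nuclei combined a high level of *Brinp3* with transcripts of *Nrg3*. They were selected on these measured values: a *Brinp3* level of at least 800 CPM and at least 2 *Nrg3* UMIs. A UMI is the tag that marks 1 captured RNA molecule, and CPM is the number of UMIs of a gene per 1000000 UMIs of a nucleus or of summed nuclei. The 801 nuclei were 8.98% (95% exact binomial interval 8.40 to 9.60) of the 8917 nuclei with 2000 to 8000 detected genes, out of 10047 barcodes in the library. A further 31 barcodes met both thresholds outside the cutoffs on genes, 16 of them below and 15 above. The 801 nuclei, called *Brinp3*/*Nrg3* nuclei here, were compared with the 5855 other nuclei that had at least 1 *Pdgfra* UMI. The other 2261 nuclei had no *Pdgfra* UMI and entered no ratio.

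The study followed BB-p53n OPCs, which carry a *Trp53* deletion and overexpress PDGF-BB, from culture to early and late gliomas in mice. The cells came from *Trp53* fl/fl C57BL/6 pups of either sex at postnatal day 5 to 7, were isolated with an antibody to CD140a (the PDGFRA protein), and received a PDGFB-IRES-CRE retrovirus in culture, so that all groups compared here share this origin; uptake of the virus was not checked per nucleus. Growth in SATO medium and infection in a dish limit the cells as a model of OPCs in the brain. There was 1 library of cultured cells, with no wild-type or uninfected library beside it, and the 6 tumor libraries were not analysed here. All comparisons are therefore between nuclei of 1 culture, no test across replicates was possible, and every interval covers counting error only.

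OPCs are the dividing glial cells that give rise to myelinating oligodendrocytes, and they receive synapses from neurons through glutamate and GABA receptors. BRINP3 is a secreted or membrane-associated protein of the nervous system named for its induction by BMP and retinoic acid. Neuregulin 3, the product of *Nrg3*, is a transmembrane ligand with an EGF-like domain that binds the receptor tyrosine kinase ErbB4. *Gabra3* encodes a subunit of the chloride channel opened by GABA, and *Lhfpl3* encodes a tetraspan membrane protein that is a common marker of OPCs.

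The *Brinp3*/*Nrg3* nuclei held 14726685 UMIs, with a median of 16425 per nucleus and a range of 3559 to 49652, while the comparison nuclei held 100603368 UMIs with a median of 15087. At equal depth the groups had similar numbers of genes, with a median of 2592 against 2579 genes when each nucleus was thinned to 5000 UMIs. Mitochondrial transcripts made up 5.35% against 6.48% of UMIs. Doublets were not removed from the counts: the doublet caller Scrublet marked 21.2% of the *Brinp3*/*Nrg3* nuclei and 21.1% of the comparison nuclei. *Trp53* (chr11:69469669-69482701) was at 20.7 against 24.8 CPM, which does not check the deletion because counts were given per gene and not per exon. Mouse *Pdgfb* gave 4 UMIs in the *Brinp3*/*Nrg3* nuclei and 39 in the comparison nuclei, and whether transcripts of the virus are counted there is not given in the sources used here.

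The OPC label held against its markers. All 12 OPC markers were detected, and they summed to 12147 CPM (95% exact Poisson interval 12090 to 12203) against 10270 CPM (10251 to 10290) in the comparison nuclei. *Pdgfra*, the receptor of PDGF, had a UMI in 90.0% of the *Brinp3*/*Nrg3* nuclei and a level of 264 CPM. The comparison nuclei were selected on *Pdgfra*, so their 320 CPM is no finding. The transcription factors *Olig1* and *Olig2* stood at 703 and 319 CPM against 629 and 306 CPM. *Megf11*, a membrane protein with EGF-like repeats, was 2.13 times as high (1.98 to 2.28), and *Sox10*, a driver of oligodendrocyte identity, was 0.595 times as high (0.556 to 0.636).

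Markers of other cell types were mostly at low levels. The microglial list summed to 22.4 against 21.8 CPM with *C1qa*, *C1qb* and *Aif1* at 0 UMIs, the endothelial list to 11.6 against 10.6 CPM with *Cldn5* and *Cdh5* at 0, and the fibroblast and pericyte list to 0.340 against 0.755 CPM. Neuronal markers summed to 265 against 172 CPM, nearly all of it *Syt1* and *Elavl4*, while the vesicular glutamate transporters *Slc17a7* and *Slc17a6* and the axonal growth gene *Stmn2* had no UMI. Astrocyte markers summed to 451 against 545 CPM with *Aqp4* at 0. Myelinating oligodendrocyte markers summed to 95.1 against 211 CPM (ratio 0.450, 0.426 to 0.475), and *Mog* and *Ermn* were at 0.

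The values that chose the nuclei are given as a description. Within the *Brinp3*/*Nrg3* nuclei, *Brinp3* ran from 801 to 7606 CPM of the nucleus with quartiles of 1022, 1327 and 1775, and came from 3 to 112 UMIs per nucleus. The summed level of *Brinp3* was 1440 CPM against 308 CPM. *Nrg3* was counted 2 to 39 times per nucleus with a median of 4, and summed to 294 CPM against 29.0 CPM. Counts were close to the limit in many nuclei, since 189 nuclei (23.6%) had exactly 2 *Nrg3* UMIs and 129 had 3, while 95 had 10 or more. The threshold on *Nrg3* is a number of UMIs and so was easier to pass in deep nuclei: among nuclei with enough *Brinp3*, those with no *Nrg3* UMI had a median of 10510 UMIs and those with 6 or more had 19145.

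Nuclei lay on both sides close to the *Brinp3* threshold. Among nuclei with at least 2 *Nrg3* UMIs, 105 lay between 700 and 800 on this scale and 85 between 800 and 900. *Nrg3* was at 235 CPM in the former and 206 CPM in the latter, *Lhfpl3* at 2914 and 2798 CPM, and *Neil3* at 28.4 and 31.8 CPM. At the *Nrg3* threshold, the 294 nuclei with 1 *Nrg3* UMI and enough *Brinp3* had 3086 CPM of *Lhfpl3* and 29.9 CPM of *Neil3* (24.8 to 35.6), beside 3062 and 39.8 CPM (32.7 to 47.9) in the 189 nuclei with 2. Other genes differed more between them: *Gabra3* was at 21.8 CPM (17.5 to 26.8) with 1 *Nrg3* UMI and 33.3 CPM (26.9 to 40.9) with 2, *Fam135b* at 38.2 CPM (32.4 to 44.7) and 62.8 CPM (53.8 to 72.8), and *Adarb2* at 162 CPM with 1 and in an interval of 183 to 217 CPM with 2. The *Brinp3*/*Nrg3* nuclei are a range of nuclei set by these thresholds.

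**Figure D1:**
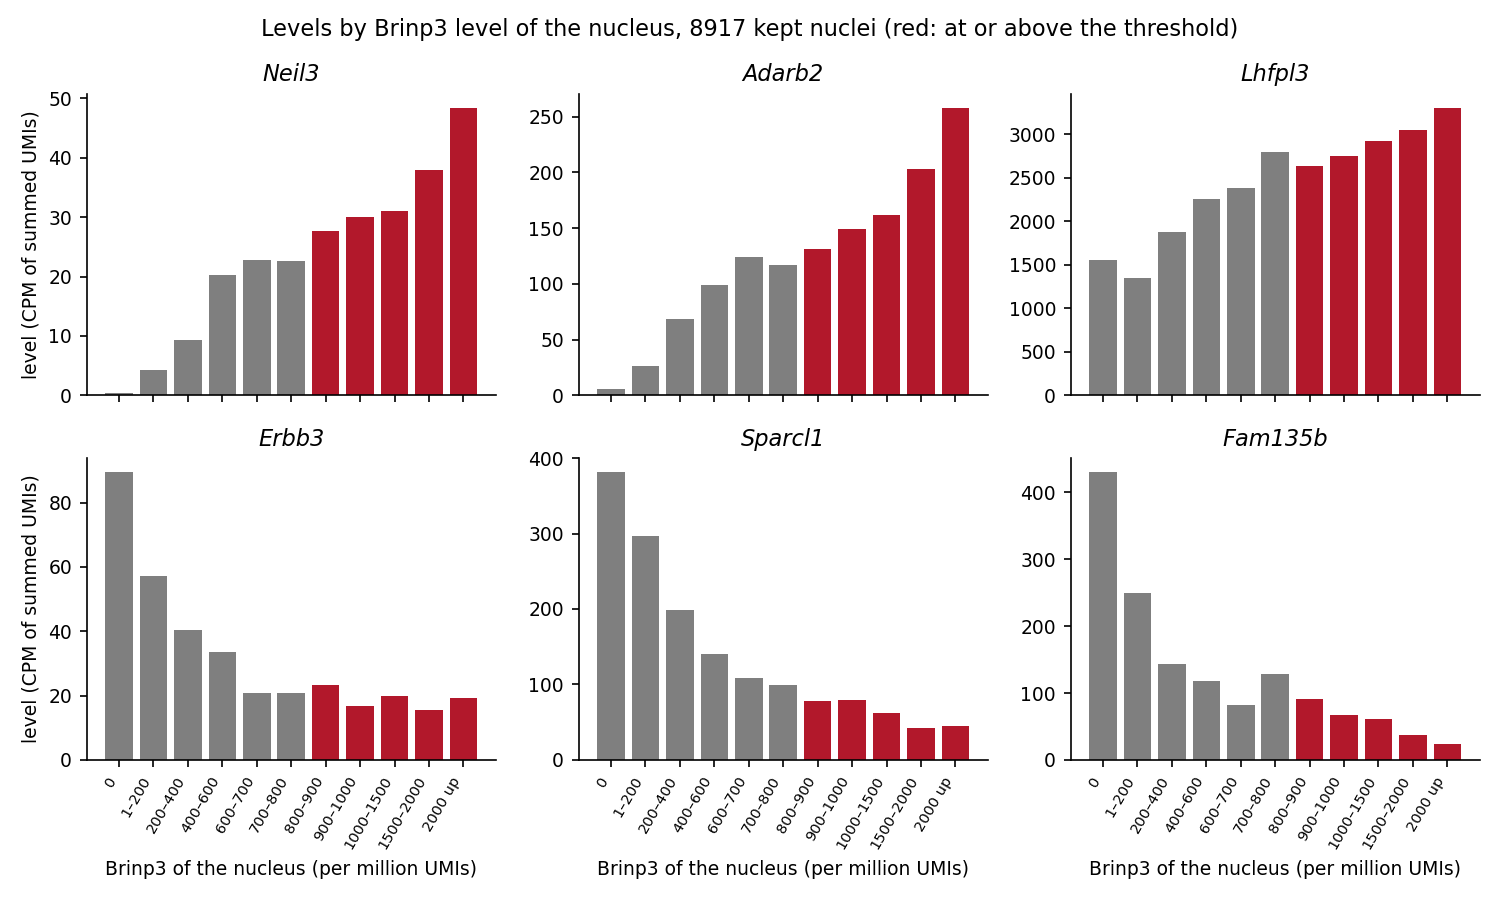
Levels of 6 genes (y axis, CPM of summed UMIs) in the 8917 kept nuclei binned by their *Brinp3* level in CPM of the nucleus (x axis), with bins at or above 800 in red, whatever their *Nrg3*. *Neil3* went from 0.341 CPM in nuclei without *Brinp3* to 48.4 CPM at 2000 or more, and *Sparcl1* from 381 to 44.5 CPM, in both cases without a break at the threshold.

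*Brinp3* lies on chr1:146370498-146780462 of GRCm39 on the plus strand. The long non-coding RNA gene *Gm29514* (chr1:146295172-146371077) starts head-to-head with it on the minus strand, and the gene models overlap by 580 bases. *Gm29514* was at 56.6 CPM in the *Brinp3*/*Nrg3* nuclei and 12.7 CPM in the comparison nuclei, 4.47 times as high (4.09 to 4.88). *Gm15584*, on the minus strand inside *Brinp3*, was at 9.71 against 2.73 CPM, and *A230059L01Rik*, also antisense inside *Brinp3*, was lower, at 1.77 against 3.56 CPM. *Nrg3* lies on chr14:38087063-39196036 on the minus strand, and its antisense genes *Nrg3os* and *Gm20642* were at 2.78 and 3.06 CPM against 0.368 and 0.408 CPM. The named transcripts that shared a start region or a locus with the selecting genes were thus mostly higher too, and the antisense gene *A230059L01Rik* was the exception. Of these transcripts only *Gm29514* reached an average of 10 CPM over both groups. *Nrg3os* rested on 41 and 37 UMIs and *Gm20642* on 45 and 41. The 250 bases before the annotated start of *Brinp3* are shown because they lie directly upstream of the gene that defined these nuclei and inside the body of *Gm29514* on the opposite strand; the capitals mark TATAAA, found 60 bases before the start on the plus strand.
*Brinp3* upstream, GRCm39 chr1:146370248-146370497, plus strand: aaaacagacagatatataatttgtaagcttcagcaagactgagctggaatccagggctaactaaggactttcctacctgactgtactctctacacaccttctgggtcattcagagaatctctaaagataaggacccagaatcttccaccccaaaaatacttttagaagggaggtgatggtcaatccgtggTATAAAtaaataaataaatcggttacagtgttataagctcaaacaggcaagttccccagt
The window has 40.0% GC, and 12.4% of the 32851 RefSeq promoter windows of the same length (GRCm38.p6) hold TATAAA on either strand. The match is a description of the letters and no evidence of a site.

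Over all genes with an average of at least 10 CPM in both groups together, 9145 in number, 224 genes (2.45%) were at least 1.5 times as high in the *Brinp3*/*Nrg3* nuclei and 245 (2.68%) were at most 1/1.5 as high, and the median ratio was 0.999. These genes were read from the same nuclei that the thresholds chose, so the counts describe what went along with high *Brinp3* and *Nrg3* and are no test. Because the filter is on the average, a gene below 10 CPM in either group could pass through the group where it was high. This holds for the 9145 genes behind the shares as well as for the gene lists. Ratios are levels in the *Brinp3*/*Nrg3* nuclei over levels in the comparison nuclei, with 95% exact intervals.

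The highest ratios outside the selecting genes were those of *Neil3*, *Gm29514* and *Adarb2*. *Neil3* (chr8:54023531-54092100), a DNA glycosylase that removes oxidised bases and is active in dividing cells, was at 40.7 against 8.64 CPM (ratio 4.71, 4.24 to 5.23). *Adarb2* (chr13:8252897-8818800), a catalytically inactive member of the RNA-editing adenosine deaminases, was at 191 against 48.5 CPM (3.94, 3.76 to 4.13). *Cpq*, a secreted carboxypeptidase, was at 91.0 against 23.8 CPM, and *Vit*, an extracellular matrix protein, at 24.6 against 6.69 CPM. The teneurin *Tenm1* and the calsyntenin *Clstn2*, transmembrane proteins of synaptic contacts, were both 3.62 times as high. *Tagln3*, an actin-associated protein of neural cells, and *Scml2*, a Polycomb-group protein, were both 3.57 times as high. The homeobox factor *Nkx2-2* (chr2:147019466-147036163), which acts in oligodendrocyte specification, was at 53.1 against 19.3 CPM (2.75, 2.53 to 2.99), and its overlapping opposite-strand transcript *Nkx2-2os* was at 27.9 against 9.68 CPM. *Nalf1*, an auxiliary subunit of the sodium leak channel, was at 348 against 127 CPM. These ratios were smaller among the 325 *Brinp3*/*Nrg3* nuclei and 1197 comparison nuclei with no more than 5% mitochondrial UMIs. There *Neil3* was at 2.60 and *Adarb2* at 2.10, and *Nkx2-2* at 1.48, *Nkx2-2os* at 1.49 and *Gprasp2* at 1.48 were under the fold. The other 8 of these genes, leaving out *Brinp3* and *Nrg3*, had ratios of 1.78 to 2.48.

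The lowest ratios were those of *Fam135b*, *Sparcl1* and *Erbb3*. *Fam135b* (chr15:71303458-71600151), a gene of little known function, was at 71.2 against 350.0 CPM (0.203, 0.191 to 0.216). *Sparcl1*, a secreted matrix protein of glia, was at 62.2 against 301 CPM (0.207, 0.193 to 0.221). *Erbb3* (chr10:128403392-128425811), a neuregulin receptor that lacks strong kinase activity of its own, was at 16.6 against 77.6 CPM (0.213, 0.187 to 0.242). The TGF-beta receptor *Tgfbr2* was at 4.14 against 16.1 CPM, and *Mgll*, the lipase that degrades the endocannabinoid 2-AG, at 16.8 against 60.7 CPM. *Chl1*, an L1-family adhesion molecule, was at 19.2 against 67.9 CPM. *Sox21*, a repressor-type SOX factor, was at 17.9 against 58.7 CPM. *Hdx*, *Sytl2*, *Coro2b*, *Asic2*, *Myo5b*, *Ppic* and *Nkain2*, also among the lowest 15, had ratios of 0.264 to 0.323.

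**Figure D2:**
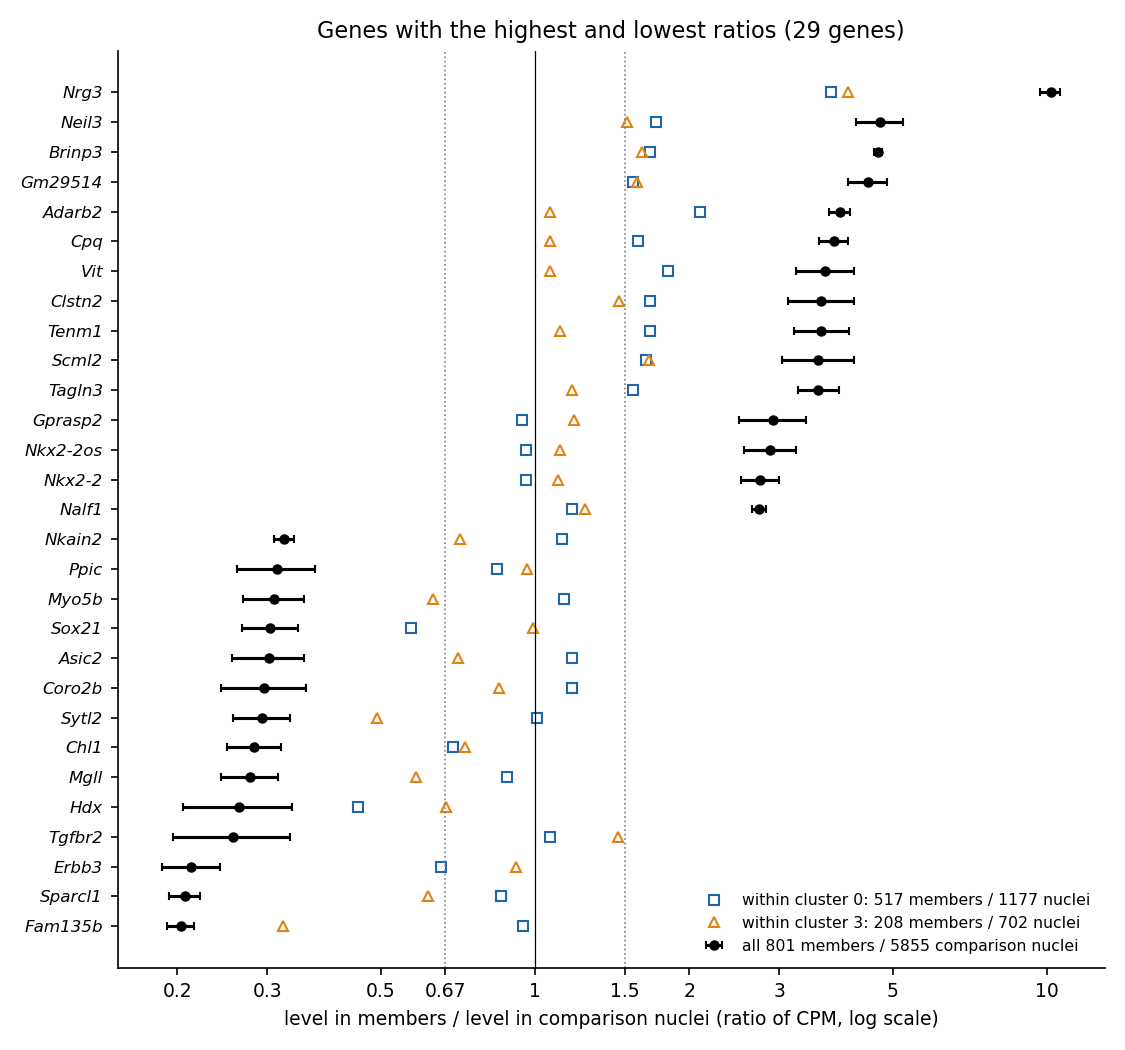
Ratio of levels (x axis, log scale) for the genes with the 15 highest ratios and 14 of the 15 with the lowest. Black points compare all 801 *Brinp3*/*Nrg3* nuclei with the 5855 comparison nuclei (bars, 95% exact intervals), and open squares and triangles make the same comparison inside re-derived clusters 0 and 3. Most open symbols sit closer to 1 than the black points, and *Nrg3*, which chose the nuclei, stays at 3.79 and 4.09.

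Nuclei that passed only 1 of the thresholds were set beside those with both or neither. The classes do not separate the selecting genes, and "alone" here means only that the other threshold was missed. Nuclei with *Nrg3* alone still had 450 CPM of *Brinp3*, against 108 CPM with neither. In the 26 nuclei with at least 2 *Nrg3* UMIs and no *Brinp3* UMI, *Adarb2* was at 41.3 CPM (24.0 to 66.1) and *Fam135b* at 238 CPM (193 to 290). There were 1155 nuclei with enough *Brinp3* but fewer than 2 *Nrg3* UMIs, 610 with *Nrg3* but too little *Brinp3*, and 6351 with neither. *Adarb2* was at 24.8 CPM with neither, 102 with *Nrg3* alone, 163 with *Brinp3* alone and 191 with both. *Gabra3* stood at 8.10, 17.9, 21.5 and 32.3 CPM in the same order. *Nkx2-2* was as high with *Brinp3* alone (55.1 CPM) as with both (53.1 CPM). *Fam135b* went the other way at 333, 171, 41.7 and 71.2 CPM, so that it was higher with both than with *Brinp3* alone. *Erbb3* was at 72.5, 34.6, 21.4 and 16.6 CPM. For *Nkx2-2*, *Fam135b* and *Sparcl1*, the nuclei with both were not the extreme group. The nuclei with *Brinp3* alone were shallower, with a median of 10985 UMIs against 17118 with *Nrg3* alone, and the part of depth in these classes was not tested.

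**Figure D3:**
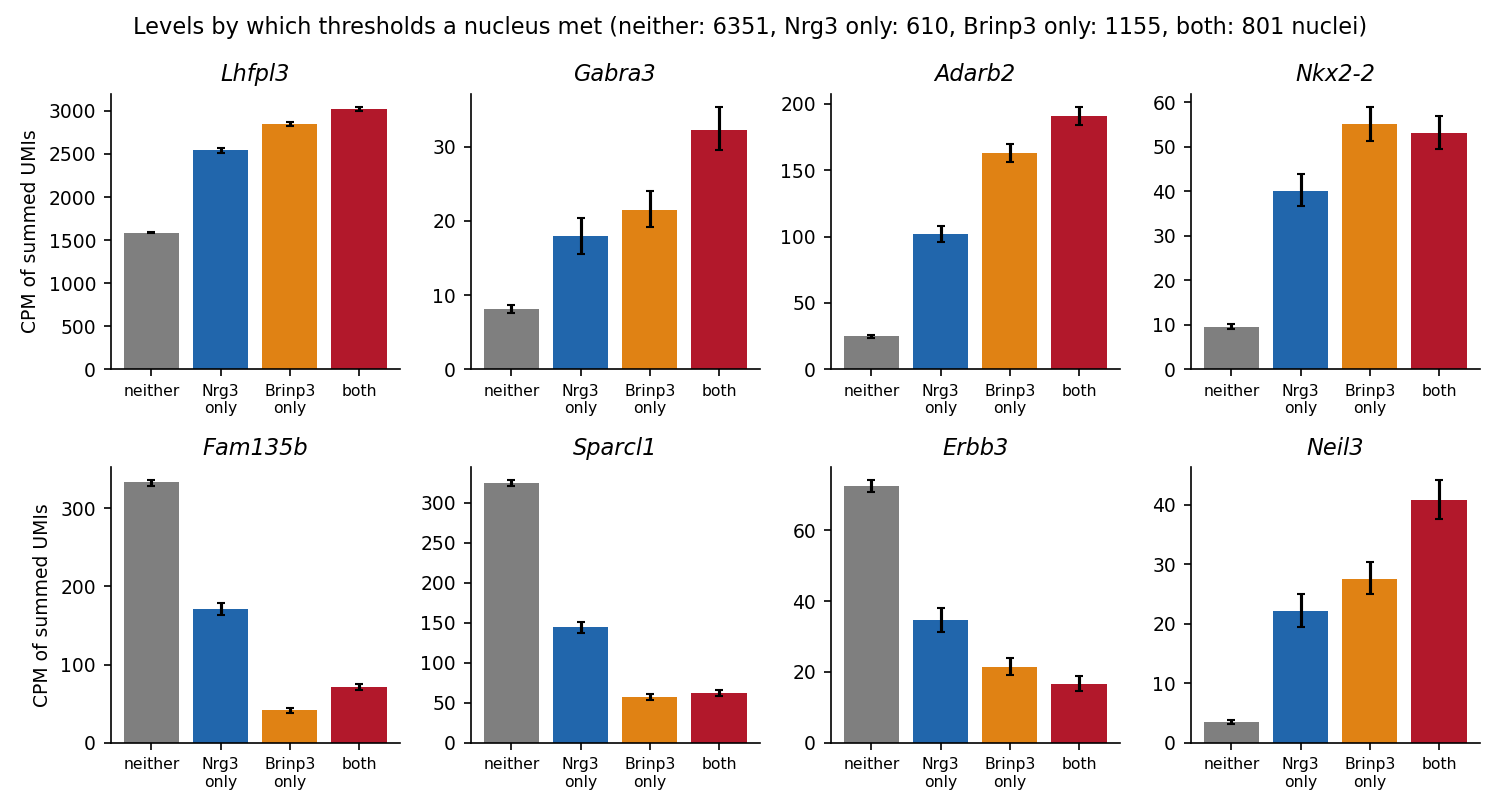
Levels of 8 genes (y axes, CPM of summed UMIs, bars from 0, error bars 95% exact Poisson intervals) in nuclei that met neither threshold (6351), only that on *Nrg3* (610), only that on *Brinp3* (1155) or both (801). *Lhfpl3* increased from 1588 CPM with neither to 3022 CPM with both, and *Erbb3* stood at 72.5 CPM with neither and 16.6 CPM with both.

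Of the marker genes given with these nuclei, *Gabra3* (chrX:71476275-71700723) was at 32.3 CPM (29.5 to 35.4) against 12.6 CPM (11.9 to 13.3), a ratio of 2.57 (2.31 to 2.86). *Lhfpl3* (chr5:22951057-23480611) was at 3022 against 2143 CPM, a ratio of 1.41 (1.40 to 1.42) that lay below the fold of 1.5. The relatives of the defining genes did not share their ratios. *Brinp1* was at 62.7 against 55.6 CPM and *Brinp2* at 124 against 121 CPM, beside the 1440 against 308 CPM of *Brinp3*. *Lhfpl4* was at 31.0 against 30.7 CPM.

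Of 5 ErbB ligands and 3 ErbB receptors past the filter, *Nrg1* and *Erbb3* were past the fold downward, beside 2.68% over all genes. *Nrg3*, which chose the nuclei, was past the fold upward. Of 11 ErbB ligands, 5 passed the filter on low levels, and *Nrg1* was at 77.4 against 141 CPM (0.548, 0.515 to 0.582). *Nrg2* was at 68.4 against 71.2 CPM. *Erbb4*, the receptor of neuregulin 3, was at 1129 against 1166 CPM (0.968, 0.952 to 0.984), a similar level in both groups. *Nrg3* transcripts were present by selection, so their presence beside those of *Erbb4* is no finding. *Erbb3* had the lowest ratio of the family, 0.213, and *Erbb2*, which ErbB3 needs as a partner, was at 0.815 against 1.80 CPM, below the filter. *Egfr* was at 28.7 against 28.5 CPM.

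Genes of inhibitory transmission went in both directions. Of 19 GABA-A receptor subunits, 5 passed the filter, and 2 of them, *Gabra3* and *Gabrb2*, were past the fold upward, beside 2.45% over all genes. The median ratio of the 5 was 1.33 beside 0.999 over all genes. *Gabrb2* was at 14.9 against 7.15 CPM (2.09, 1.79 to 2.43) and passed the filter only through the *Brinp3*/*Nrg3* nuclei, while *Gabrg1* and *Gabrg3* had ratios of 1.33 and 1.24. Of 11 genes of GABA synthesis, transport and anchoring, 6 passed the filter. Of these, the chloride importer *Slc12a2*, at 169 against 258 CPM, and the GABA-B receptor *Gabbr1*, at 14.3 against 21.9 CPM, were past the fold downward, beside 2.68% over all genes. Gephyrin (*Gphn*), the scaffold of inhibitory synapses, was at 508 against 344 CPM with a ratio of 1.48, just under the fold. *Gad1*, the GABA-synthesizing enzyme, was at 1.09 against 2.16 CPM and *Gad2* had no UMI in the *Brinp3*/*Nrg3* nuclei.

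Glutamate receptors differed less. None of the 8 AMPA and kainate subunits past the filter reached the fold, and their median ratio was 1.04; *Gria4* stood at 885 against 810.0 CPM, *Grik2* at 482 against 466 and *Gria2* at 411 against 325. Of 7 NMDA receptor subunits only *Grin3a* passed the filter, at 162 against 97.8 CPM (1.65, 1.58 to 1.73). *Grin1*, the subunit that NMDA receptors require, was at 4.41 against 3.12 CPM.

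The list of synaptic adhesion genes, which also holds genes of other kinds such as *Sgcz* and *Dpp6*, had a median ratio of 1.31 over the 16 that passed the filter. Of these 16, 4 were past the fold upward and 0 downward, beside 2.45% and 2.68% over all genes. The 4 were the neurexin *Nrxn3* (363 against 197 CPM), the neuroligin *Nlgn1* (1988 against 1228 CPM), the sarcoglycan *Sgcz* (743 against 378 CPM) and the potassium channel partner *Dpp6* (17.0 against 6.82 CPM). *Dpp6* passed the filter only through the *Brinp3*/*Nrg3* nuclei, and *Nrxn3* lies on chromosome 12, where nearly all genes were higher in these nuclei. *Lrrtm2*, a postsynaptic partner of neurexins, was at 18.9 against 24.0 CPM. Among 34 axon guidance genes, 24 passed the filter, with 2 past the fold upward and 1 downward, beside 2.45% and 2.68% over all genes. The 2 upward were the netrin receptors *Unc5c* (775 against 494 CPM) and *Unc5d* (96.1 against 37.7 CPM). Their co-receptor *Dcc* was at 2499 against 2241 CPM, and the semaphorin *Sema3d* was past the fold downward at 93.2 against 161 CPM.

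Of 30 ion channel genes past the filter, 6 were past the fold upward and 0 downward, beside 2.45% and 2.68% over all genes. Of 17 potassium channel genes, with a median ratio of 1.08, these were the inward rectifier *Kcnj16* (24.7 against 15.2 CPM), the A-type channel *Kcnd2* (2233 against 1465 CPM), the calcium-activated *Kcnma1* (73.6 against 39.3 CPM) and the sodium-activated *Kcnt2* (36.9 against 18.1 CPM). Of 13 sodium and calcium channel genes, with a median ratio of 1.22, they were *Scn3a*, a sodium channel of immature neurons, at 15.7 against 5.86 CPM (2.67, 2.29 to 3.12), and the calcium channel subunit *Cacnb2* at 48.6 against 31.0 CPM. *Scn3a* passed the filter only through the *Brinp3*/*Nrg3* nuclei.

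Of 23 lineage transcription factors past the filter, 5 were past the fold upward and 1 downward, beside 2.45% and 2.68% over all genes, and the median ratio was 1.14. *Sox9*, a factor of glial progenitors, was at 366 against 196 CPM (1.86, 1.81 to 1.92), *Sox8* at 24.2 against 14.7, *Sox11* at 301 against 199 and *Prox1* at 47.5 against 29.3 CPM, beside *Nkx2-2*; *Sox10* was the gene past the fold downward, at 64.4 against 108 CPM. *Sox2* was at 243 against 207 CPM. None of the 8 primitive OPC markers was past the fold, and their median ratio was 1.06. Of 10 neural progenitor markers, 4 passed the filter and 2 were past the fold upward, beside 2.45% over all genes. These were the microtubule-binding gene *Dcx*, at 65.7 against 28.3 CPM (2.32, 2.16 to 2.50), and *Sox11*, while *Nes* was at 302 against 284 CPM. *Sox11* lies on chromosome 12, where nearly all genes were higher in these nuclei. No committed OPC marker was past the fold: *Bcas1* was at 295 against 404 CPM, and *Gpr17* at 8.28 against 11.7 CPM was below the filter.

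Most signaling and matrix genes lay within the fold, and 2.68% of all genes were past it downward. Of 12 matrix genes, with a median ratio of 1.03, the proteoglycan aggrecan (*Acan*) was at 5.43 against 15.3 CPM (0.354, 0.279 to 0.444) and tenascin C (*Tnc*) at 80.8 against 147 CPM. Of 12 feedback and output genes of the ERK pathway, *Spry2* (48.5 against 79.1 CPM) and *Phlda1* (203 against 313 CPM) were past the fold, and *Etv5* was at 187 against 175 CPM. Of 9 Notch and BMP genes, the ligand *Jag1* (17.7 against 27.9 CPM), the BMP receptor *Bmpr1b* (8.42 against 18.4 CPM) and the BMP target *Id3* (51.7 against 88.0 CPM) were past the fold. *Pdgfa* and *Pdgfc* had ratios of 1.10 and 1.07. Of 9 hypoxia and glycolysis genes, the hexokinase *Hk2* was past the fold at 16.4 against 25.4 CPM. None of the 13 mitochondrial genes and neither of the 2 MHC and interferon genes past the filter reached the fold, and the mitochondrial sum was 0.826 times as high.

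Phase calls moved with these nuclei. At 5000 UMIs per nucleus, 16.5% (14 to 19.3) of the *Brinp3*/*Nrg3* nuclei were called G1 by Seurat scores of the S and G2M genes, against 29.9% (28.8 to 31.1) of the comparison nuclei. The S share was 43.7% (40.2 to 47.2) against 34.0% (32.8 to 35.3), and the G2M share 39.8% (36.4 to 43.3) against 36% (34.8 to 37.3). Without thinning, G1 was 19.1% against 34.5%, and thinning left out 7 and 78 nuclei with fewer UMIs. Phase calls score relative levels and may carry free RNA, whose part was not tested. Of 10 D cyclins and CDK inhibitors, *Cdk6* (25.8 CPM, ratio 1.85) and the p53 target *Cdkn1a* (30.1 CPM, ratio 1.72) were past the fold upward, beside 2.45% over all genes. *Ccnd1* was at 1255 against 1285 CPM. The immediate early gene *Fos* was at 55.5 against 35.7 CPM. *Neil3* had ratios of 5.52, 3.98 and 4.22 within G1, S and G2M nuclei, and *Erbb3* of 0.249, 0.247 and 0.190.

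Sex-linked transcripts were uneven, in a culture made from pups of either sex. At 5000 UMIs, 36.3% (32.9 to 39.7) of the *Brinp3*/*Nrg3* nuclei had UMIs of the Y-linked genes *Ddx3y*, *Eif2s3y*, *Kdm5d* or *Uty* and none of *Xist*, against 18.1% (17.1 to 19.1) of the comparison nuclei. *Xist* without Y-linked UMIs was found in 3.53% (2.36 to 5.06) against 7.34% (6.68 to 8.04), and neither in 58.8% (55.3 to 62.3) against 73.7% (72.6 to 74.8). Without thinning, the Y-linked share was 52.4% against 25.3%. As a gauge of free RNA, the nuclei without *Pdgfra*, at a median of 10654 UMIs, held 1429 with *Xist* alone and 34 with *Xist* and a Y-linked UMI after thinning. Ratios were smaller among nuclei with Y-linked UMIs only, where *Neil3* was 1.89 times as high and *Nkx2-2* 1.20 times, than among nuclei with neither, where they were 6.53 and 3.58 times as high.

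**Figure D4:**
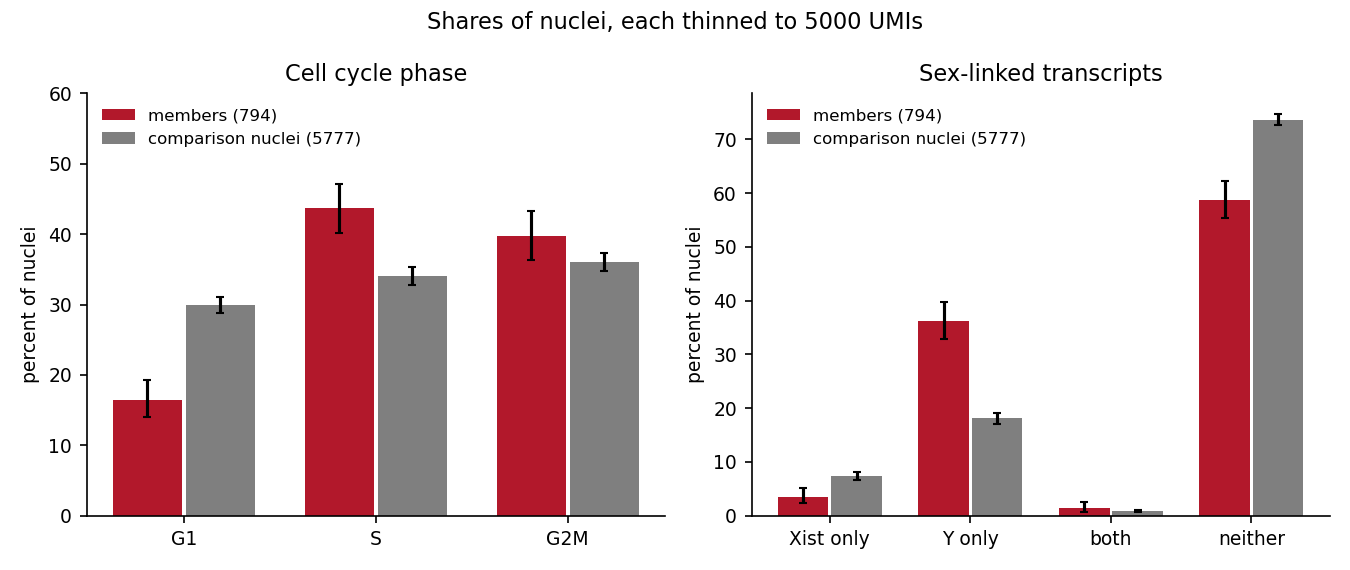
Percent of nuclei (y axis, bars from 0, error bars 95% exact binomial intervals) by cell cycle phase (left) and by sex-linked transcripts (right), for 794 *Brinp3*/*Nrg3* nuclei and 5777 comparison nuclei thinned to 5000 UMIs each. G1 made up 16.5% against 29.9%, and nuclei with only Y-linked UMIs 36.3% against 18.1%.

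At the settings of the study's methods, the *Brinp3*/*Nrg3* nuclei did not form a cluster of their own. The 8 clusters here cover more nuclei than the 1954 that the study lists after its filter. They were not matched to the study's clusters. When all 8917 nuclei were clustered with the settings of the study's methods, 517 (64.5%) fell in cluster 0, 208 (26.0%) in cluster 3 and 67 (8.36%) in cluster 5, and 9 in the other 5 clusters. They made up 28.6% (26.5 to 30.7) of cluster 0 and 15.5% (13.6 to 17.6) of cluster 3. Leaving the marker genes out of the clustering put 514 (64.2%) in 1 cluster. With 20 neighbors in place of 200, 213 of them fell in 1 cluster of 348 nuclei and were 61.2% (55.9 to 66.4) of it.

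Nuclei chosen by the same thresholds differed between clusters. *Gabra3* was at 43.4 CPM in the cluster 0 nuclei and 10.4 CPM in the cluster 3 nuclei, and *Tenm1* at 36.1 and 11.6 CPM. The secreted neurokine genes *Tafa1* and *Tafa2* were at 15.8 and 40.8 CPM in cluster 0 and 310.0 and 386 CPM in cluster 3. *Pdgfra* was at 300.0 CPM in cluster 0 and 168 CPM in cluster 3, and *Fam135b* at 61.9 and 16.4 CPM. The Y-linked *Eif2s3y* was at 17.8 and 78.6 CPM, and *Xist* at 7.48 and 23.8 CPM. The 67 nuclei in cluster 5 had a median of 32068 UMIs, Scrublet marked 92.5% of them, and their *Xist* level was 109 CPM. *Nkx2-2* was at 55.6, 59.5 and 34.1 CPM in clusters 0, 3 and 5.

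Differences from the comparison nuclei were smaller within clusters 0 and 3 than over all nuclei for most of the ranked genes. Within cluster 0, 517 *Brinp3*/*Nrg3* nuclei and 1177 comparison nuclei gave 89 genes past the fold upward and 53 downward, against 224 and 245 overall. There *Adarb2* was 2.10 times as high and *Neil3* 1.72 times. *Nkx2-2* was at a ratio of 0.959, and *Fam135b* at 0.946. Among the 13 genes of the top 15 that did not choose the nuclei, 10 stayed above 1 within cluster 0 and 9 stayed past the fold. Within cluster 3, with 208 and 702 nuclei, all 13 stayed above 1 and 3 stayed past the fold. *Gabra3* was 1.22 times as high (1.07 to 1.39) within cluster 0 and 3.56 times within cluster 3. *Erbb3* was at 0.655 within cluster 0 and 0.916 within cluster 3. Of the 15 lowest genes, 9 stayed below 1 within cluster 0 and 14 within cluster 3, where *Tgfbr2* was the exception at 1.45. Within cluster 5, with 67 and 669 nuclei, all 13 higher genes stayed past the fold and 12 of the 15 lowest did.

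The genes past the fold were not spread evenly over the genome. On chromosome 14, 56 of 327 genes (17.1%) were past the fold downward, beside 2.68% over all genes, and 50 of them were among the 89 genes from 70 Mb to the end of the chromosome. These 50 were 20.4% of all genes past the fold downward, and they include *Sox21*, *Spry2*, *Slitrk1*, *Itm2b*, *Gpc5* and *Gpc6*. On chromosome 12, 24 of 327 genes (7.34%) were past the fold upward and 1 downward, beside 2.45% upward over all genes, and the 24 include *Nova1*, *Nrxn3*, *Fos* and *Sox11*. The boundary of 70 Mb was picked from these data after 10-Mb intervals of every chromosome had been seen.

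The direction was shared by nearly all genes of these regions. The median log2 ratio over the 327 genes of chromosome 12 was 0.31, with 95.4% of genes above 0, and over the 89 genes of distal chromosome 14 it was -0.62, with 91.0% below 0. Over the 238 genes of chromosome 14 before 70 Mb the median was -0.10. In single nuclei, distal chromosome 14 gave a median of 0.868% of UMIs in the *Brinp3*/*Nrg3* nuclei, and 96.8% of them lay below the comparison median of 1.28%. Chromosome 12 gave a median of 3.36% against 2.36%, and 6.37% of the *Brinp3*/*Nrg3* nuclei lay below the comparison median.

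Clusters 0 and 3 differed in how much of chromosome 14 was low. In the *Brinp3*/*Nrg3* nuclei of cluster 0 the median log2 ratio was 0.02 before 70 Mb and -0.66 after it, while in those of cluster 3 it was -0.66 before and -0.80 after. Chromosome 12 was high in both, at 0.30 and 0.38. From 70 to 80 Mb of chromosome 15, the 76 genes had a median of -0.48 in cluster 0 and -0.20 in cluster 3, and 8 of these genes, with *Fam135b* and *Sox10* among them, were past the fold downward. *Pdgfb* lies in this interval. *Nrg3* lies at 38 to 39 Mb of chromosome 14, in the part that was low in cluster 3, where it was at 270.0 CPM in the *Brinp3*/*Nrg3* nuclei.

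In clusters 0 and 3, comparison nuclei of the same cluster showed the same regional levels. Against comparison nuclei of the same cluster, the *Brinp3*/*Nrg3* nuclei of cluster 0 had a median log2 ratio of 0.02 on distal chromosome 14 and 0.02 on chromosome 12, and those of cluster 3 had -0.02 and 0.04, while the 67 nuclei of cluster 5 had -0.30 and 0.16. Against comparison nuclei outside clusters 0, 3 and 5, the comparison nuclei of cluster 0 had -0.94 on distal chromosome 14 and 0.48 on chromosome 12, close to the -0.89 and 0.49 of the *Brinp3*/*Nrg3* nuclei of that cluster. The part of copy number in these regions was not tested, and a gene's ratio there and the ratio of its region cannot be told apart.

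**Figure D5:**
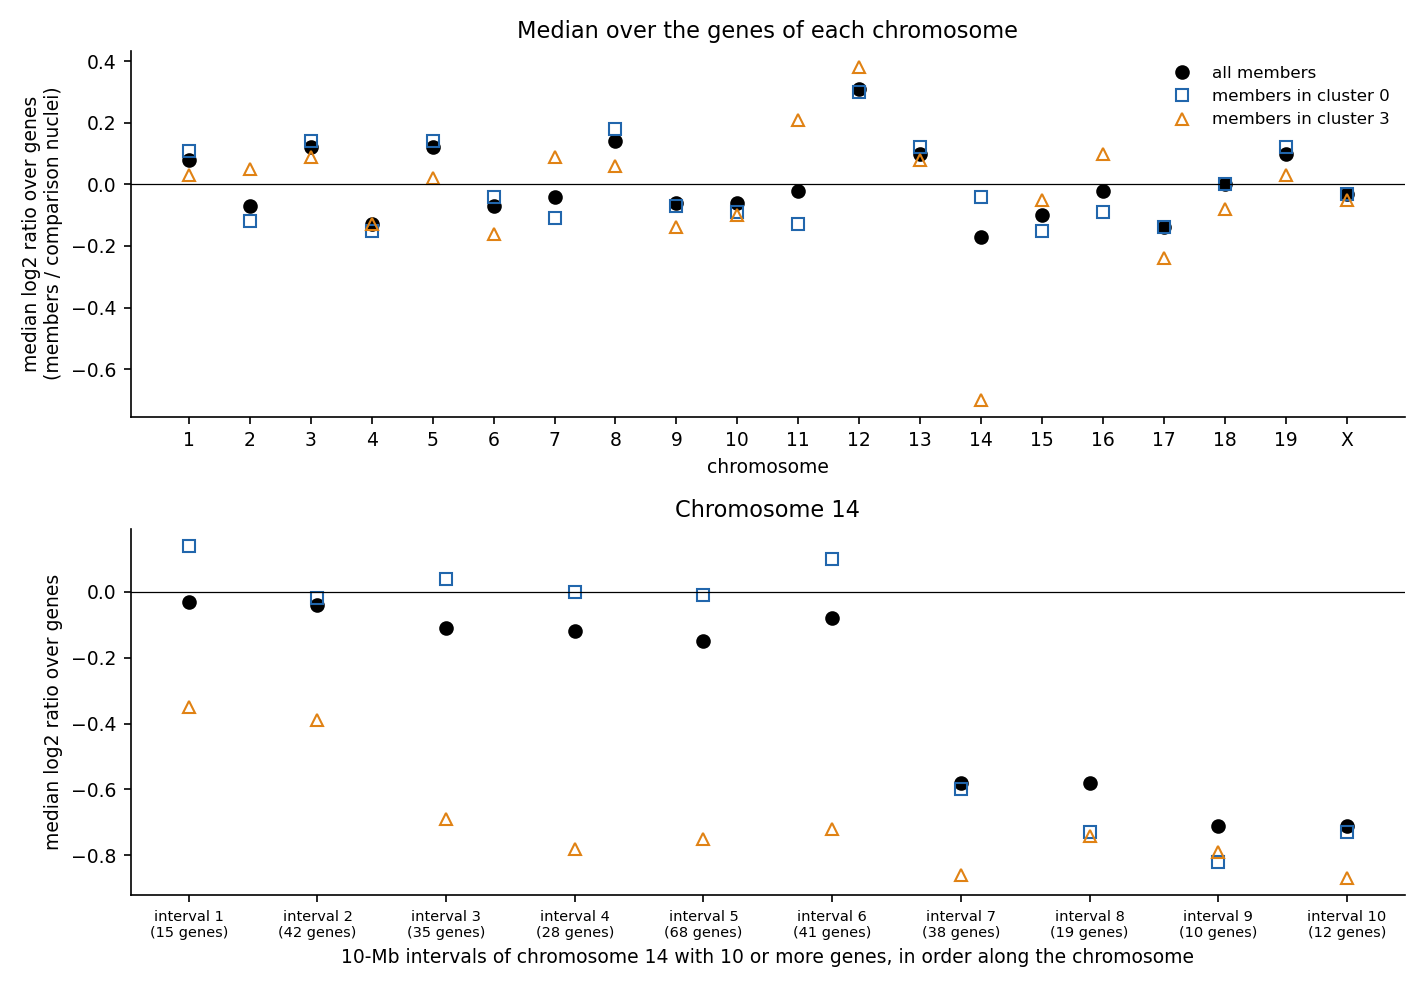
Median log2 ratio of levels over the comparison nuclei (y axes, pseudocount 0.5 CPM) for genes with an average of at least 10 CPM, by chromosome (top) and by 10-Mb interval of chromosome 14 with 10 or more genes, in order along the chromosome (bottom), for all *Brinp3*/*Nrg3* nuclei and those of clusters 0 and 3. Chromosome 12 stands at 0.31 for all nuclei, 0.30 for cluster 0 and 0.38 for cluster 3, and on chromosome 14 the nuclei of cluster 0 drop from 0.10 in interval 6 to -0.60 in interval 7, while those of cluster 3 are at -0.35 or below throughout.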

How the data were processed

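Nuclei of cultured BB-p53n OPCs were profiled with the 10X Chromium 3′ v3.1 kit. The deposited matrix holds UMI counts per gene and barcode, which the authors made with Cell Ranger 8.0.1 on mm39, and no value in it is normalized. Counts of nuclei with 2000 to 8000 genes were summed by group and divided by summed UMIs (CPM), with exact Poisson intervals and exact conditional intervals for ratios. With 1 library there was no replicate, so no p-value was computed. A gene was called past the fold at a ratio of 1.5 or 1/1.5, given an average of 10 CPM. The genes named are the markers given for these nuclei, the 15 highest and 15 lowest ratios with at least 100 UMIs, members of 33 gene lists, targeted and sex-linked genes and genes within 1 Mb of *Brinp3* and *Nrg3*. The members and lists were chosen with earlier results of these data known. Clusters were re-derived in Seurat 5.3.0 (scale factor 1000, 3000 variable genes, regression on total counts, 20 components, 200 neighbors, resolution 1.0) and phases called from 43 S and 54 G2M genes. Scrublet (scanpy 1.11.5, expected rate 8%) called 1488 nuclei (16.7%) doublets, and these nuclei were kept. Of the 8917 nuclei, 1954 had at most 5% mitochondrial UMIs, which is the number of cells the study lists after its filter; nuclei above 5% were kept here and left out as an alternative. Gene positions came from GENCODE vM39 on GRCm39, which matched 33185 of 33696 genes, and promoters from RefSeq. Ratios and chromosome medians were tested on simulated counts. Alternatives covered thresholds, cutoffs, doublets, comparison nuclei, depth, phase, sex-linked transcripts, filters and clustering. Tumor libraries were not analysed here. Results for some genes are not reported here.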

Additional observations from a re-analysis of the deposited data

How the results depend on the processing

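Beside 801 nuclei, 224 genes past the fold upward and 245 downward as reported, the counts at no more than 5% mitochondrial UMIs were 325 nuclei and 95 genes upward. The upward and downward counts were 626 and 772 within *Xist*-only nuclei (28 of them *Brinp3*/*Nrg3* nuclei), 55 and 59 within Y-only nuclei, and 415 and 390 within G1 nuclei; the upward count was 361 within nuclei with neither kind of transcript. With an average of 5 CPM 337 genes were upward, with 20 CPM 163 were downward, with 50 CPM the counts were 75 and 79, with no filter 3356 and 6502, and with a fold of 2 they were 58 and 67. Of the alternatives chosen after seeing the data, leaving out Scrublet calls gave 354 upward, staying within cluster 0 gave 89 and 53, and leaving cluster 0 out gave 381 upward. With 20 neighbors the cluster with most of these nuclei held 26.6% of them, against 64.5%. Ratios crossed 1 in 10 of 672 cases over 21 settings and 32 genes, and 623 were past the fold. The 32 genes include *Brinp3* and *Nrg3*, which chose the nuclei, and the ranked genes, which were taken from these same data. Many settings also share most of their nuclei, so this tally is a description and no test. Within cluster 0, *Gprasp2* was at 0.942, *Nkx2-2os* and *Nkx2-2* at 0.959, *Tgfbr2* at 1.07, *Sytl2* at 1.01, *Coro2b* and *Asic2* at 1.18, *Myo5b* at 1.14 and *Nkain2* at 1.13, and within *Xist*-only nuclei *Hdx* was at 1.07. Fewer nuclei or genes entered each of these subsets, and other causes were not tested. The other counts stayed within 1.5 times of those reported. With all deposited barcodes, 832 nuclei met the thresholds, and the genes were not recomputed. Depth limits genes of low level, such as *Acan* with 80 UMIs in the *Brinp3*/*Nrg3* nuclei. No paired analysis was possible because there was 1 library.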

Other observations

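Genes outside the lists, named after their values were seen, add to this picture. Replication-dependent linker histones on chromosome 13 were higher in the *Brinp3*/*Nrg3* nuclei, with *H1f5* at 491 against 259 CPM, *H1f3* at 71.2 against 41.0 and *H1f1* at 45.8 against 25.8 CPM. From 20 to 30 Mb of chromosome 13, 8 of the 36 genes (22.2%) were past the fold upward, beside 2.45% over all genes. This interval was picked after the 10-Mb intervals had been seen. The share of nuclei called S was higher as well, and a link to these genes was not tested. *Rrm2*, a subunit of ribonucleotide reductase, was at 164 against 90.9 CPM. The nuclear retained RNA *Neat1* was at 232 against 98.8 CPM (2.35, 2.26 to 2.44), and the neighboring imprinted genes *Usp29* and *Peg3* had ratios of 2.57 and 1.86. *Pcdh11x*, a protocadherin on the X chromosome, was at 1467 against 832 CPM.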
